A study of Mus musculus with 9 samples.

Results

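The genes described here are the enzymes by which a cell modifies and clears foreign compounds, reactive aldehydes and oxidants. They were chosen by symbol: the cytosolic glutathione S-transferases (*Gst*), the numbered cytochromes P450 (*Cyp*) apart from the sterol demethylase, the UDP-glucuronosyltransferases (*Ugt*), the aldehyde dehydrogenases (*Aldh*), the aldehyde oxidases (*Aox*), the cytosolic sulfotransferases (*Sult*) and 6 antioxidant genes (*Nqo1*, *Hmox1*, *Gclc*, *Gclm*, *Txnrd1* and *Srxn1*), with symbols ending in -ps left out. The rule found 209 of 52459 gene symbols, namely 106 *Cyp*, 27 *Sult*, 23 *Gst*, 22 *Ugt*, 21 *Aldh* and 4 *Aox* genes and the 6 antioxidant genes. The rule uses symbols and no measured values, though the families were picked with earlier results of these data known.

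RNA had been sequenced from untreated NMuMG cells, an immortalized line of mouse mammary gland epithelium, in 3 conditions with 3 libraries each. Mock cells carried the empty vector. EPR cells overexpressed the full transcript BC030870, a long noncoding RNA that also encodes a small peptide, and EPRSTOPE cells overexpressed a point mutant of it that does not give the peptide. All 3 populations were stable transfectants of pBICEP-CMV-based vectors, selected with G418 and kept as pools, so that every comparison is between selected populations. The methods call the libraries biological triplicates but do not say whether the 3 of a condition came from separate pools, and the p-values measure the spread between these libraries, which may be smaller than that between pools. Fewer cells of a kind and less RNA per cell cannot be told apart in such bulk samples.

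The libraries held 5972457 to 11876435 estimated counts, so that 3 counts corresponded to 0.253 to 0.502 counts per 1000000 counts of a library (CPM). BC030870 had 0, 0 and 2 counts in the mock libraries, 271, 214 and 256 in EPR and 28, 39 and 33 in EPRSTOPE. EPR and EPRSTOPE cells therefore differed in the amount of the RNA as well as in the peptide, and these differences cannot be told apart. Of the epithelial markers, *Epcam*, *Cldn3*, *Cldn4* and *Cldn7* were at 0 in every mock library and the 3 claudins also in every EPRSTOPE library, whereas the keratins *Krt8* (1989 to 2232 CPM), *Krt18* (1440 to 1638) and *Krt19* (261.1 to 292.9) were abundant in mock. The 10 epithelial markers summed to 3693 to 4158 CPM in mock, 9502 to 10610 in EPR and 10688 to 11025 in EPRSTOPE, and 10 mesenchymal markers to 3663 to 3843, 2003 to 2226 and 3789 to 4147 CPM. The epithelial sum, most of it *Krt8* and *Krt18* in every group, was higher in both overexpressing populations and the mesenchymal sum was lower in EPR alone. Their part in the results was not tested. The hepatocyte markers, of interest because liver is rich in these enzymes, summed to 0 to 2.0 CPM in all 9 libraries. The 6 enterocyte markers summed to 3.17 to 4.35 CPM in mock, 50.2 to 55.1 in EPR and 29.6 to 39.4 in EPRSTOPE. Of these, *Vil1* and *Cdx2* rose in both overexpressing populations. *Cdx2*, at 0, 0 and 0.16 CPM in mock, reached the level needed for testing only through those populations. *Cdx1* and *Apoa4* were at 0 in every library. *Fabp2* and *Alpi* stayed at or below 0.53 CPM in every library, and *Alpi* was at 0 in the EPR libraries.

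As background, these enzymes are usually described in successive steps. Cytochromes P450, aldehyde dehydrogenases and aldehyde oxidases oxidize a compound, and transferases then attach glutathione, glucuronic acid or sulfate to it, which makes it soluble and ready for export. Many of the genes are controlled by the transcription factor NRF2, the product of *Nfe2l2*, which responds to oxidants and electrophiles and binds antioxidant response elements (ARE), or by the aryl hydrocarbon receptor, which binds xenobiotic response elements (XRE). Aldehyde dehydrogenases of the 1A subfamily also make retinoic acid and are widely used to mark progenitor cells of the mammary gland.

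NMuMG cells used a small subset of this repertoire, as they did of all gene symbols, of which 15370 of 52459 passed the same filter. Of the 209 genes, 59 reached 1 CPM in at least 3 libraries and were tested, 74 had some counts but stayed below this level, and 76 had no count in any library. The unused genes were mainly those of the large families: 13 of 106 *Cyp*, 4 of 27 *Sult*, 9 of 22 *Ugt* and 11 of 23 *Gst* genes were tested, against 15 of 21 *Aldh* genes, 2 of 4 *Aox* genes and 5 of the 6 antioxidant genes. Together the 209 genes took 0.213 to 0.23% of all counts in the mock libraries, 0.441 to 0.458% in EPR and 0.354 to 0.366% in EPRSTOPE. Their summed level was 2110 ± 48.8 CPM (SD, n = 3) in mock, 4580 ± 150 in EPR cells and 3740 ± 51.3 in EPRSTOPE cells, and no library of a group overlapped with those of another.

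**Figure D1:**
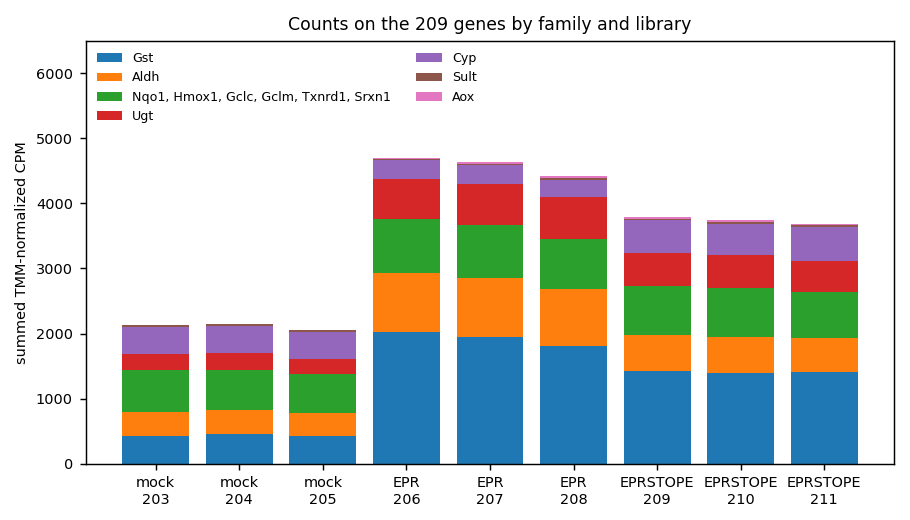
Summed TMM-normalized CPM of the 209 genes in each of the 9 libraries (bars, axis from 0), stacked by family. The 3 mock libraries stand near 2110 CPM, the EPR libraries near 4580 and the EPRSTOPE libraries near 3740, and the *Gst* block grows most, from 436 to 1930 and 1410 CPM.

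Genes were called changed when the edgeR quasi-likelihood fit to all 15370 tested genes gave an adjusted p below 0.01 together with a log2 fold change above 0.5 or below -0.5. In EPR against mock cells 36 of the 59 tested genes were called (61%), 32 higher and 4 lower, where 28.1% of all tested genes were called, 15.2% higher and 12.9% lower. In EPRSTOPE against mock cells 33 were called (55.9%), 30 higher and 3 lower, where 28.0% of all genes were called, 15.6% higher and 12.4% lower. The median log2 fold change of the 59 genes was 1.13 in EPR and 0.68 in EPRSTOPE cells, and that of all tested genes -0.01 and -0.04. Both comparisons use the same mock libraries. The filter used CPM before TMM normalization. On that scale 7 of the 59 genes (*Aox3*, *Cyp2s1*, *Cyp4f14*, *Gsta3*, *Gstm1*, *Gstm2* and *Gstm7*) were below 1 CPM in at least 2 mock libraries. On the normalized scale of the values printed here, *Cyp4b1* and *Aldh1l2* were below it in 2 mock libraries as well, and they are not among the 7. These 7 passed the filter through the other populations and so had to be higher in EPR, EPRSTOPE or both. Among the other 52, 25 were called higher and 4 lower in EPR, and 25 higher and 3 lower in EPRSTOPE. These 52 still hold genes such as *Aldh3a1* (0.78, 1.27 and 1.71 CPM in mock), which also needed libraries other than mock to pass. Their calls are thus not free of the filter. Among the 33 genes whose mean reached 10 CPM, 27 were called in EPR (23 higher and 4 lower) and 24 in EPRSTOPE (21 higher and 3 lower). Of all genes at such levels, 33.6% were called in EPR (17.5% higher and 16.0% lower) and 33.3% in EPRSTOPE (19.3% higher and 14.0% lower). The mean was taken over all libraries. Genes low in mock, such as *Aldh3a1* and *Gstm1*, the latter among the 7 above, therefore reached it through the other populations.

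By direction, 26 genes were called higher than mock in both populations and 2 lower in both (*Aldh18a1* and *Hmox1*). Of the rest, 5 were higher in EPR alone (*Aldh3b1*, *Aox3*, *Gsta3*, *Gsto2* and *Ugt2b34*), 4 higher in EPRSTOPE alone (*Aldh1l2*, *Cyp26b1*, *Cyp4f13* and *Gstz1*), 2 lower in EPR alone (*Cyp1b1* and *Sult2b1*), and *Aldh1a1* was higher in EPR and lower in EPRSTOPE. The remaining 19 were called in neither. How many of all tested genes were called in both populations was not counted, so the 26 cannot be read as particular to these genes. These are calls against mock, and whether a gene differed between EPR and EPRSTOPE is given by the direct comparison further on.

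**Figure D2:**
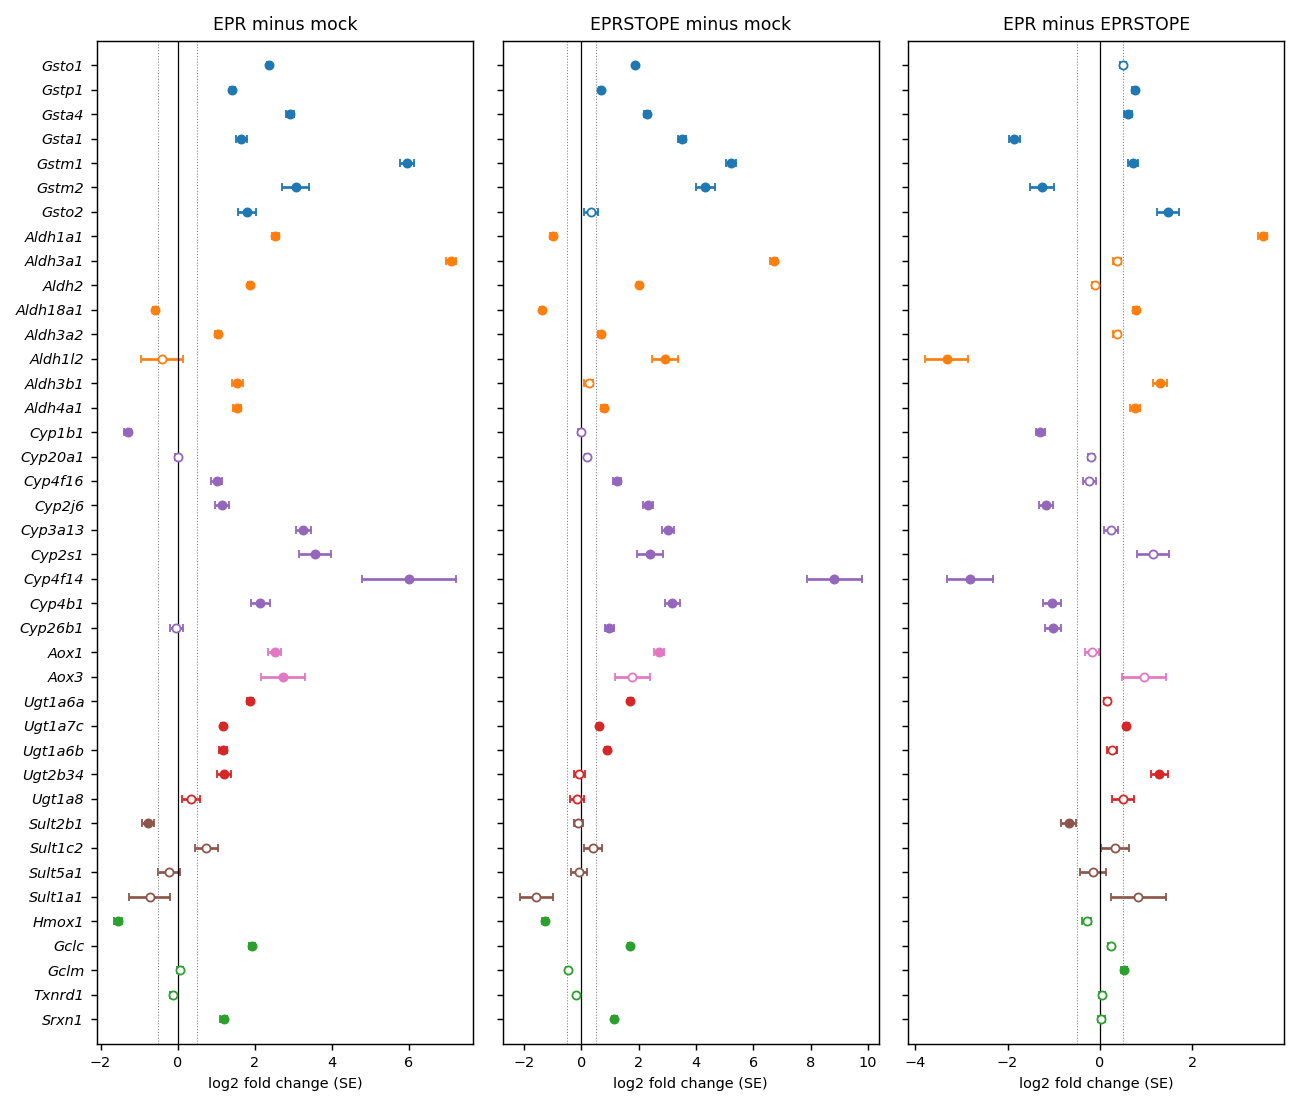
Log2 fold changes (points) with standard errors (bars) of 40 tested genes in the 3 comparisons, grouped by family (colours), with filled points for called genes and dotted lines at 0.5 and -0.5. Points lie mostly to the right of 0 in the left and middle panels and on both sides of 0 in the right panel. The values of *Cyp4f14*, at 0 in every mock library, depend on the prior count and are no bound.

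Most *Cyp* counts of mock cells fell on *Cyp1b1*, an oxidase of steroids and polycyclic hydrocarbons and a classical target of the aryl hydrocarbon receptor. *Cyp1b1* (ENSMUSG00000024087.3, chromosome 17 of GRCm38 from 79701537 to 79715061, 1 annotated transcript) stood at 318, 311 and 321 CPM in the mock libraries, 138, 134 and 113 in EPR and 326, 280 and 332 in EPRSTOPE. The EPR libraries were all below all others, while mock and EPRSTOPE overlapped. It fell in EPR cells by 1.30 on the log2 scale (SE 0.09, adjusted p = 1.3e-07 in edgeR's quasi-likelihood test), and the difference between EPRSTOPE and mock was -0.02 (SE 0.08). This gene, whose transcript is long, made up 76.0% of the family's CPM sum in mock libraries, 45.9% in EPR and 62.0% in EPRSTOPE. Per length it stood at 48.1 ± 4.24 TPM in mock and 21.1 ± 3.27 in EPR, with *Cyp20a1* at 33.7 ± 4.63 and 24.3 ± 2.1 TPM. The summed *Cyp* level was lower in EPR (279 ± 11.9 CPM, SD, n = 3) than in mock cells (417 ± 3.66), while without *Cyp1b1* it was 99.9 ± 3.38 CPM in mock, 151 ± 6.46 in EPR cells and 191 ± 7.9 in EPRSTOPE.

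Of the 13 tested *Cyp* genes, 6 rose and 1 fell in EPR cells and 8 rose and none fell in EPRSTOPE cells (median log2 fold changes 0.67 and 1.0), where 15.2% and 15.6% of all tested genes were higher and 12.9% and 12.4% lower. Without *Cyp2s1* and *Cyp4f14*, which passed the filter through libraries other than mock, 4 of 11 rose in EPR and 6 in EPRSTOPE, with medians of 0.12 and 0.98. The 11 still hold *Cyp4b1* (0.996 ± 0.144 CPM in mock), which needed such libraries as well. *Cyp3a13*, a member of the subfamily that oxidizes many drugs, had 3.11, 2 and 1.55 CPM in mock, 19.4, 20.3 and 21.1 in EPR and 15.8, 17.4 and 18.3 in EPRSTOPE. Both populations lay far above mock, with log2 fold changes of 3.26 (SE 0.19) and 3.02 (SE 0.20). *Cyp2j6*, of a subfamily that epoxidizes polyunsaturated fatty acids, had 4.82, 5.59 and 4.4 CPM in mock, 9.69, 12.1 and 11.4 in EPR and 19.5, 27.6 and 26.9 in EPRSTOPE, so that the 3 groups were separate and EPRSTOPE was highest. Its log2 fold changes were 1.16 in EPR and 2.33 in EPRSTOPE, and EPR was lower than EPRSTOPE by 1.17 (SE 0.16, adjusted p = 0.00017, edgeR).

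Of the 5 tested genes of the *Cyp4* family, which includes fatty acid hydroxylases, 3 rose in both populations (*Cyp4b1*, *Cyp4f14* and *Cyp4f16*). Of all tested genes 15.2% were higher in EPR and 15.6% in EPRSTOPE, and the share higher in both was not counted. *Cyp4b1* had 0.93, 1.16 and 0.9 CPM in mock, 4.71, 4.29 and 4.3 in EPR and 10.7, 8.76 and 8.17 in EPRSTOPE, and *Cyp4f16* 10.2, 15 and 11.4, then 22.1, 24.4 and 27.7, then 31.7, 28 and 27.6 CPM. Outside the naming rule, *Cyp4f13* was called in EPRSTOPE alone (4.55 ± 0.692, 7.2 ± 0.984 and 9.0 ± 1.84 CPM in mock, EPR and EPRSTOPE) and *Cyp4x1* in neither (2.82 ± 0.188, 3.04 ± 0.513 and 1.6 ± 0.833). In *Cyp4f16* EPR and EPRSTOPE overlapped (27.7 against 27.6 CPM), whereas in *Cyp4b1* they did not. *Cyp4f14* had no count in any mock library, 0.52, 1.64 and 0.56 CPM in EPR and 4.07, 5.98 and 8.4 in EPRSTOPE. Against the mean of 0.36 CPM that 3 counts give over the mock libraries, it was at least 2.53-fold higher in EPR and at least 17.1-fold higher in EPRSTOPE cells. *Cyp2s1*, expressed in epithelia, was 0.62 ± 0.548 CPM in mock, 6.64 ± 0.147 in EPR cells and 2.96 ± 0.489 in EPRSTOPE, with log2 fold changes of 3.56 and 2.40. *Cyp26b1*, which degrades retinoic acid, rose in EPRSTOPE (6.61 ± 0.67 to 13.1 ± 0.514 CPM, log2 fold change 0.98) and was 6.49 ± 1.18 CPM in EPR. *Cyp20a1*, an orphan member, stood between 51.8 and 64.6 CPM in all 9 libraries, with log2 fold changes of 0.00 and 0.20.

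The aldehyde dehydrogenases included the largest increase among all tested members with counts in mock. *Aldh3a1* (ENSMUSG00000019102.10, chromosome 11 from 61207537 to 61218421), an oxidizer of medium-chain and aromatic aldehydes that is abundant in cornea and some tumours, had 0.78, 1.27 and 1.71 CPM in the mock libraries. In EPR it had 183, 184 and 184 CPM and in EPRSTOPE 147, 144 and 134. From a level near the detection limit it came to hold 20.5% of the family's CPM sum in EPR and 25.7% in EPRSTOPE, where on the TPM scale *Aldh2* was above it (104 ± 7.5 against 79.0 ± 14.0 TPM). The means were 147 times the mock mean in EPR and 113 times in EPRSTOPE, or 7.09 (SE 0.13, adjusted p = 2.5e-12) and 6.71 (SE 0.13, adjusted p = 3.8e-12) on the log2 scale in the edgeR fit. The mock values rest on few counts, so the size of this change is less certain than its direction. EPR was above EPRSTOPE by 0.37, with no overlap between libraries, which missed the call on size (adjusted p = 0.0042, edgeR).

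*Aldh1a1* (ENSMUSG00000053279.7, chromosome 19 from 20492715 to 20643465), the cytosolic retinaldehyde dehydrogenase, went in opposite directions. It had 49.9, 51.5 and 44.6 CPM in mock, 274, 290 and 280 in EPR and 24.2, 28.4 and 21.1 in EPRSTOPE. The 3 groups did not overlap, with EPR on top and EPRSTOPE below mock. The log2 fold change was 2.53 in EPR (SE 0.09, adjusted p = 1.1e-09) and -0.98 in EPRSTOPE (SE 0.10, adjusted p = 5.9e-06), and the direct difference between the populations was 3.52 (SE 0.10, adjusted p = 7.7e-10), all in the edgeR fit. The other tested members of the 1A subfamily were low and not called (*Aldh1a3* at 4.16 ± 0.0806, 1.98 ± 0.949 and 3.44 ± 0.405 CPM in mock, EPR and EPRSTOPE, and *Aldh1a7* at 1.31 ± 0.708, 3.04 ± 0.455 and 1.4 ± 0.749), and are named here outside the rule for named genes.

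*Aldh2*, the mitochondrial enzyme that clears acetaldehyde, had 27.5, 28.4 and 27.8 CPM in mock, 109, 99.5 and 99.5 in EPR and 113, 112 and 109 in EPRSTOPE. Both populations were about equally above mock, by 1.88 and 2.0 on the log2 scale (SE 0.06 each). *Aldh3a2*, which oxidizes fatty aldehydes, rose from 44.5 ± 5.75 CPM to 91.1 ± 3.86 in EPR and 70.8 ± 2.31 in EPRSTOPE, and *Aldh4a1*, which acts in proline breakdown, from 9.53 ± 0.506 to 27.6 ± 2.77 and 16.4 ± 0.877. *Aldh18a1*, which works in the opposite direction as the first enzyme of proline synthesis, had 111, 119 and 115 CPM in mock, 80, 79.2 and 72.3 in EPR and 46.2, 47.1 and 41.5 in EPRSTOPE. It fell in both populations, by 0.58 and 1.36 on the log2 scale. *Aldh1l2*, the mitochondrial formyltetrahydrofolate dehydrogenase, had 0.852 ± 0.252 CPM in mock, 0.616 ± 0.438 in EPR cells and 6.32 ± 2.12 in EPRSTOPE, where it rose by 2.92 (SE 0.45). In all, 8 of the 15 tested *Aldh* genes rose and 1 fell in EPR, and 7 rose and 2 fell in EPRSTOPE, where 15.2% and 15.6% of all tested genes were higher and 12.9% and 12.4% lower. Their summed level went from 363 ± 6.5 CPM to 895 ± 13.6 and 552 ± 22.0.

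The aldehyde oxidases are molybdenum enzymes that oxidize aldehydes and nitrogen heterocycles. *Aox1* had 4.19, 3.9 and 3.26 CPM in mock, 17.6, 20.8 and 26 in EPR and 26.3, 22.3 and 24.3 in EPRSTOPE. Both populations lay above mock and overlapped with each other, and *Aox1* rose by 2.52 (SE 0.17) and 2.70 (SE 0.18) on the log2 scale. Its neighbour *Aox3* stayed at or below 1.39 CPM in every library and passed the filter only through its EPR libraries (1.22, 1.39 and 1.21 CPM), which fixes its call there.

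**Figure D3:**
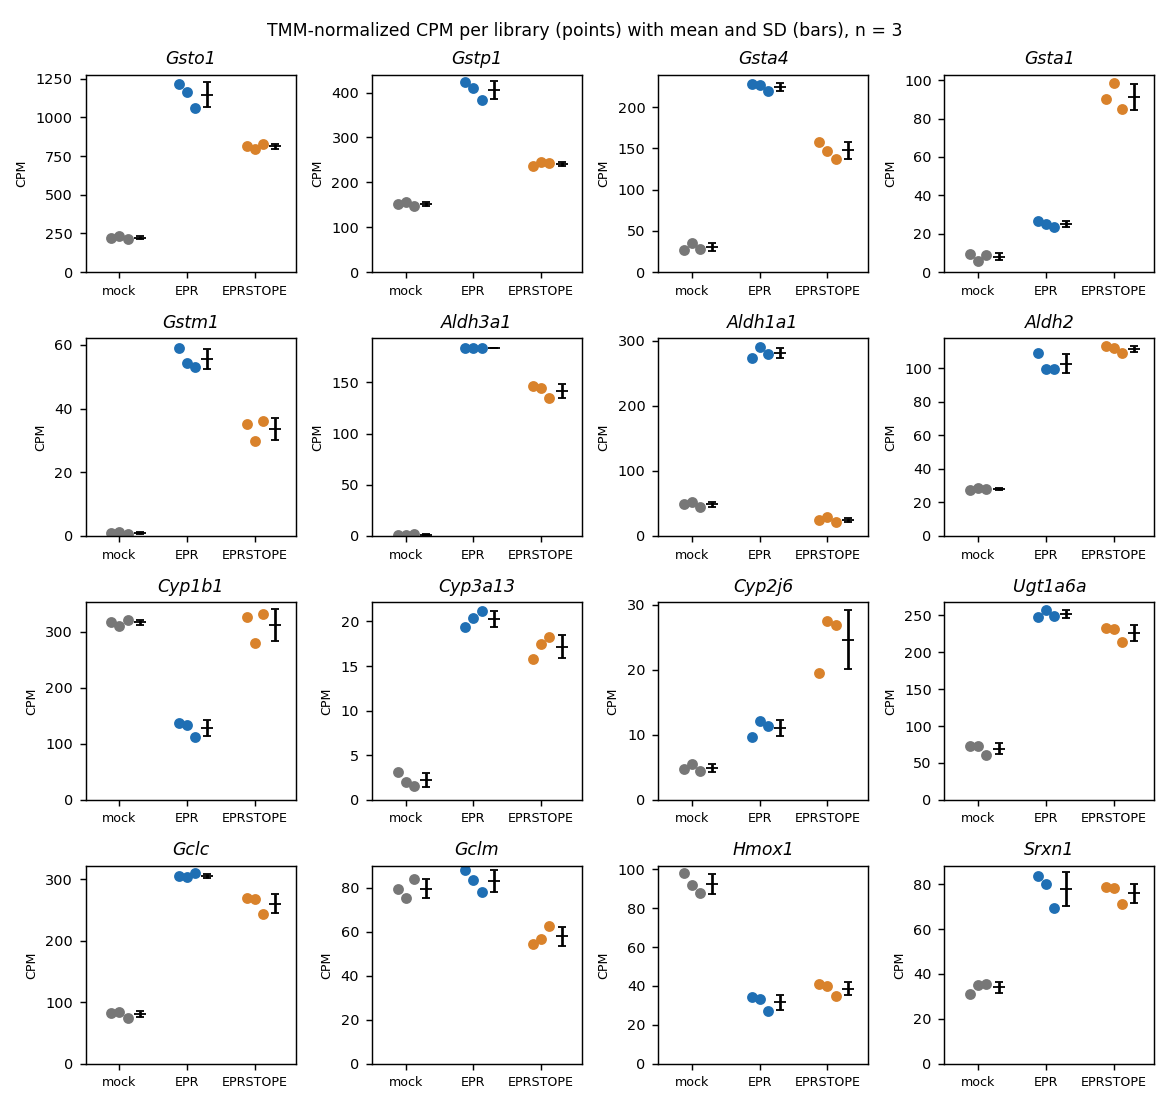
TMM-normalized CPM of 16 genes in each library (points), with the mean and SD of each group (bars, n = 3), each panel on its own linear axis from 0. *Aldh3a1*, *Gstm1* and *Gsto1* are high in both overexpressing populations, *Aldh1a1* is high in EPR alone, *Gsta1* and *Cyp2j6* are highest in EPRSTOPE, and *Cyp1b1* is low in EPR alone.

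The glutathione S-transferases, which join glutathione to electrophiles, are the family of *Gsto1* and *Gstm1*. Of 11 tested *Gst* genes 10 rose in EPR and 9 in EPRSTOPE and none fell. Of all tested genes 15.2% and 15.6% were higher and 12.9% and 12.4% lower. However, *Gsta3*, *Gstm1*, *Gstm2* and *Gstm7* passed the filter through libraries other than mock, so that each had to be higher in at least 1 population. Of the other 7, 6 rose in EPR and 6 in EPRSTOPE, with median log2 fold changes of 1.80 and 1.88. Over all 11 the medians were 2.36 and 2.30, or 2.27 and 1.88 with *Gstm7*, which had no count in mock, set at its lower bound. The summed *Gst* level was 436 ± 15.0 CPM in mock, 1930 ± 110 in EPR cells and 1410 ± 14.3 in EPRSTOPE. The medians are read with the transcript lengths given below, since *Gst* transcripts are short and fragment lengths differed between the groups.

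*Gsto1* (ENSMUSG00000025068.7, chromosome 19 from 47854970 to 47864790), an omega-class enzyme with thioltransferase and dehydroascorbate reductase activity, held 50.9% of the *Gst* sum in mock, 59.5% in EPR and 57.9% in EPRSTOPE. It had 217, 232 and 216 CPM in mock, 1215, 1168 and 1060 in EPR and 817, 794 and 829 in EPRSTOPE. All 3 groups were separate, and *Gsto1* rose by 2.37 (adjusted p = 3.9e-11) and 1.88 (adjusted p = 2e-10, SE 0.06 each, edgeR). Its neighbour *Gsto2* rose in EPR alone, from 3.15 ± 0.45 to 11.1 ± 2.12 CPM, and was 4.07 ± 0.949 in EPRSTOPE. *Gstp1*, the pi-class enzyme abundant in epithelia and many tumours, had 152, 156 and 147 CPM in mock, 423, 411 and 382 in EPR and 236, 245 and 242 in EPRSTOPE. It rose by 1.42 in EPR and by 0.67 in EPRSTOPE, and the latter call was lost when counts were rescaled for effective length (0.447).

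The alpha class divided between the populations. *Gsta4*, which detoxifies the lipid peroxidation product hydroxynonenal, had 26.4, 35.4 and 27.6 CPM in mock, 228, 226 and 219 in EPR and 158, 147 and 138 in EPRSTOPE, so EPR was highest. *Gsta1* had 9.32, 5.91 and 8.87 CPM in mock, 26.8, 25.1 and 23.3 in EPR and 90.3, 98.3 and 84.8 in EPRSTOPE, so EPRSTOPE was highest. These neighbours lie on chromosome 9 at 78182774 to 78209349 and 78230656 to 78242684. In the direct edgeR comparison *Gsta4* was higher in EPR by 0.61 (SE 0.09, adjusted p = 0.00037) and *Gsta1* lower in EPR by 1.86 (SE 0.12, adjusted p = 5e-07).

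The mu class, a cluster on chromosome 3, was low in mock cells. *Gstm1* had 0.78, 1.27 and 0.65 CPM in mock, 59.1, 54.4 and 53.1 in EPR and 35.1, 29.8 and 36.2 in EPRSTOPE, and rose by 5.94 and 5.22 (SE 0.18 each). *Gstm2* had 0.16, 0.84 and 1.22 CPM in mock, 7.24, 6.06 and 7.66 in EPR and 20.7, 14.6 and 15.7 in EPRSTOPE, so that EPRSTOPE was highest, the opposite order to *Gstm1*. Outside the naming rule, *Gstm5* went from 6.41 ± 2.22 CPM to 33.1 ± 1.37 and 37.5 ± 1.61, and *Gstm7* from no count to 1.73 ± 0.519 and 1.24 ± 0.884, at least 4.81-fold and 3.45-fold higher. Members of the mu and alpha classes share long stretches of sequence, so the division of reads between such paralogs by the authors' quantification is uncertain.

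Promoters were read for the genes found in a RefSeq table (GRCm38.p6, 250 bases before each start), which held 47 of the 59 tested genes. The promoters below are shown because *Gstm5* rose in both populations and has a match to the ARE core, *Gclm* and *Txnrd1* are textbook NRF2 targets that also have a match but did not rise, and *Gsto1*, which had the most counts of the transferases, has none. Capitals mark the ARE core TGACNNNGC, searched on both strands, and each sequence is written 5′ to 3′ on the strand of its gene.
*Gstm5* (chr3:107895604-107895853, plus strand): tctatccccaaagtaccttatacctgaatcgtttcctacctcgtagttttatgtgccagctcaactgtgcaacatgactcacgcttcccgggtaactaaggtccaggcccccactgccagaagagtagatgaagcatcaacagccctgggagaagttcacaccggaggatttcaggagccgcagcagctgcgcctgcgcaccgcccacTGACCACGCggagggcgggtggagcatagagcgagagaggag
*Gclm* (chr3:122245307-122245556, plus strand): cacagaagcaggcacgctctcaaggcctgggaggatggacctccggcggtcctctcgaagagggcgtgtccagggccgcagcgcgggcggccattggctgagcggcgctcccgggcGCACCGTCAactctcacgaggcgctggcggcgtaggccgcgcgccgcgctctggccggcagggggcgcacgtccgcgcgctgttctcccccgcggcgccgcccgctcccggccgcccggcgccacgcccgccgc
*Txnrd1* (chr10:82858956-82859205, plus strand): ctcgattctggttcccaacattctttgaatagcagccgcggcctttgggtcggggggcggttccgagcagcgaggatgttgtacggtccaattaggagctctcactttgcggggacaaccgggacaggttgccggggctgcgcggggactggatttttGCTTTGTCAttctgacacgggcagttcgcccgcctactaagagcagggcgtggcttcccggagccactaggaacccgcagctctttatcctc
*Gsto1* (chr19:47854723-47854972, plus strand): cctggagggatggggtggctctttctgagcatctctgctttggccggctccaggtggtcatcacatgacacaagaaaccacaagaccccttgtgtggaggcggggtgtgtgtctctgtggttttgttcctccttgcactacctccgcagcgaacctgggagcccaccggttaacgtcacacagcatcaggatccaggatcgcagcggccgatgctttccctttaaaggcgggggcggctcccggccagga

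The match begins 42 bases before the annotated start in *Gstm5*, 134 before it in *Gclm* and 92 before it in *Txnrd1*, where it belongs to the second of 3 annotated starts. In *Gclm* and *Txnrd1* it lies on the opposite strand, so that the capitals show its reverse complement. Over the whole table window, which runs 50 bases past the start, 9 of the 47 tested promoters (19.1%) had the ARE core, against 16.6% of all tested genes and 14.0% of all genes in the table. None of these 9 matches overlapped the AP-1 motif TGANTCA. The letters TGAGTCAGC, which contain that motif, were outside the core searched and stand in the windows of *Gstp1* and *Srxn1*. Of 26 promoters of genes higher in EPR, 6 had the ARE core (23.1%). Among these were *Cyp4f14*, *Gsta3* and *Gstm7*, which passed the filter through libraries other than mock, so their place in this set is not free of the filter. The XRE core TNGCGTG was found in 4 of the 47 promoters (8.51%), against 9.25% of all tested genes, and *Cyp1b1* was not among them. Of the 26 promoters of genes higher in EPR, 1 had the XRE core (3.85%). *Aldh3a1*, *Gclc* and *Hmox1* have no entry. These letters are a description of the windows and say nothing about binding.

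The UDP-glucuronosyltransferases attach glucuronic acid to phenols, bilirubin and steroids, and 8 of the 9 tested members are alternative first exons of the *Ugt1a* locus on chromosome 1, which share their remaining exons. *Ugt1a6a* had 73.3, 73.3 and 60.8 CPM in mock, 248, 258 and 249 in EPR and 233, 232 and 214 in EPRSTOPE, and rose by 1.87 and 1.71 (SE 0.08 each). *Ugt1a7c* had 92.3, 106 and 104 CPM in mock, 228, 223 and 236 in EPR and 149, 157 and 157 in EPRSTOPE, with EPR above EPRSTOPE by 0.57 (adjusted p = 3.7e-05, edgeR). *Ugt1a6b* rose from 46.5 ± 4.98 CPM to 104 ± 2.14 and 87.5 ± 12.5, whereas *Ugt1a8* was low and not called at 7.47 ± 2.44, 9.52 ± 1.43 and 6.84 ± 1.17.

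Because reads of the shared exons cannot be assigned to a first exon with certainty, the 9 *Ugt1a* symbols were also summed and tested as 1 gene. The sum was 240 ± 14.4 CPM in mock, 614 ± 5.48 in EPR cells and 491 ± 18.8 in EPRSTOPE (SD, n = 3 each), with no overlap between groups. It rose by 1.36 in EPR (adjusted p = 2.7e-09) and by 1.04 in EPRSTOPE (adjusted p = 2.2e-08), and EPR and EPRSTOPE differed by 0.32, which was not called (SE 0.06, adjusted p = 0.00094, edgeR). *Ugt2b34*, on chromosome 5 and outside this locus, rose in EPR alone, from 7.54 ± 0.765 to 17.5 ± 2.18 CPM, and was 7.11 ± 1.8 in EPRSTOPE.

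The sulfotransferases were sparse, with 28.0 ± 3.32 CPM for all 27 genes in mock, 21.6 ± 1.8 in EPR and 26.1 ± 3.29 in EPRSTOPE. None of the 4 tested genes rose, where 15.2% of all tested genes were higher in EPR and 15.6% in EPRSTOPE. *Sult2b1*, which sulfates cholesterol, had 22.5, 19 and 19.1 CPM in mock, 10.9, 12.5 and 12 in EPR and 14.2, 19.5 and 22.2 in EPRSTOPE. Only its EPR libraries were separate from mock, and it fell there by 0.77 (SE 0.15, adjusted p = 0.0012, edgeR). *Sult1c2*, *Sult5a1* and *Sult1a1* stayed between 0.35 and 6.07 CPM in every library.

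The antioxidant genes did not move as a group. *Gclc*, the catalytic subunit of the ligase that limits glutathione synthesis, had 82.2, 83.7 and 74.6 CPM in mock, 305, 303 and 310 in EPR and 270, 269 and 243 in EPRSTOPE, and rose by 1.93 (adjusted p = 4.5e-10) and 1.70 (adjusted p = 1.1e-09, SE 0.07 each, edgeR). *Gclm*, the modifier subunit of the same ligase, had 79.2, 75.5 and 84.1 CPM in mock, 87.8, 83.3 and 77.8 in EPR and 54.4, 56.8 and 62.7 in EPRSTOPE. Mock and EPR overlapped and EPRSTOPE was below both, with log2 fold changes of 0.06 (SE 0.07) and -0.46 (SE 0.08), neither called. The latter was called without mock library 204 (-0.503), without EPRSTOPE library 211 (-0.515) and with counts rescaled for effective length (-0.541). Per length, *Gclc* stood below *Gclm* in mock (32.8 ± 4.28 against 92.8 ± 11.9 TPM) and above it in EPRSTOPE (90.4 ± 15.5 against 56.5 ± 11.0), and in EPR the values were 102 ± 6.63 for *Gclc* and 91.0 ± 5.63 TPM for *Gclm*.

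*Hmox1*, the haem oxygenase induced by haem and oxidants, had 98, 91.7 and 87.7 CPM in mock, 34.6, 33.1 and 26.9 in EPR and 40.8, 40 and 34.6 in EPRSTOPE. Both populations were below mock, and it fell by 1.55 (adjusted p = 1.2e-07) and 1.26 (adjusted p = 6.1e-07, SE 0.10 each, edgeR). *Srxn1*, which reactivates oxidized peroxiredoxins, had 31.1, 35.2 and 35.6 CPM in mock, 83.8, 80.2 and 69.4 in EPR and 78.8, 78.2 and 71.1 in EPRSTOPE, and rose by 1.19 and 1.15 (SE 0.09 each). *Txnrd1*, the cytosolic thioredoxin reductase, was abundant at 331 ± 23.1, 303 ± 15.1 and 295 ± 5.38 CPM and not called. *Nqo1*, a quinone reductase often used as the readout of NRF2 activity, was almost absent, with 0, 2 and 0 counts in mock, 6, 6 and 1 in EPR and 3, 15 and 6 in EPRSTOPE, and was not tested. Of these 6 textbook NRF2 targets, 2 rose in both populations, 1 fell in both, 2 were not called against mock and 1 could not be tested. Of all tested genes 15.2% were higher and 12.9% lower in EPR, and 15.6% and 12.4% in EPRSTOPE.

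EPR and EPRSTOPE were then compared directly. This takes in what differs with the peptide, with the amount of the RNA or otherwise between the selected populations, which cannot be told apart. Of the 59 genes 21 were called (35.6%), 11 higher and 10 lower in EPR, where 13.2% of all tested genes were called, 6.86% higher and 6.35% lower. The median log2 difference of the 59 genes was 0.15 and that of all genes 0.01. At a mean of 10 CPM or more, 10 of 33 genes were higher and 4 lower in EPR, against 7.26% and 7.85% of all such genes. Of the *Cyp* genes 5 were lower in EPR (*Cyp1b1*, *Cyp26b1*, *Cyp2j6*, *Cyp4b1* and *Cyp4f14*) and none higher, and in the *Ugt* family 2 were higher (*Ugt1a7c* and *Ugt2b34*) and none lower, a difference between families that was not tested. *Gst* genes went both ways, with *Gsta4*, *Gstm1*, *Gsto2* and *Gstp1* higher and *Gsta1* and *Gstm2* lower in EPR, as did *Aldh* genes, with *Aldh1a1*, *Aldh18a1*, *Aldh3b1* and *Aldh4a1* higher and *Aldh1l2* and *Aldh6a1* lower. *Gclm* was higher and *Sult2b1* lower. Without EPR library 206, and likewise without library 208, the number of genes lower in EPR was 6 instead of 10.

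Some calls rested on single libraries. *Gclm* was no longer called between EPR and EPRSTOPE without EPR library 206 (0.476) or EPRSTOPE library 209 (0.484) or 210 (0.498). *Sult2b1* was not called without any one EPR library or without EPRSTOPE library 210 or 211, with values from -0.716 to -0.538. *Gstm2* was not called without EPR library 206 or 207 or EPRSTOPE library 209 (-1.285 to -1.098), *Cyp4f14* without EPR library 206 or 208 (-2.531 and -2.563), and *Cyp4b1* without EPR library 207 or 208 or EPRSTOPE library 209 (-1.017 to -0.919). In each case the direction was kept.

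*Aldh2*, *Aox1*, *Cyp3a13*, *Gclc*, *Srxn1* and *Ugt1a6a* were among the genes raised in both populations and not called between them, with differences of -0.12 (SE 0.06), -0.17 (SE 0.15), 0.24 (SE 0.15), 0.23 (SE 0.06), 0.03 (SE 0.08) and 0.15 (SE 0.07) on the log2 scale. *Gsto1*, at 0.50 (SE 0.06, adjusted p = 4.5e-05, edgeR), lay at the size threshold itself and was called with no filter (0.515), with only the compared groups in the fit (0.509), and without EPR library 208 (0.564) or EPRSTOPE library 209 or 211 (0.510 each). *Cyp2s1*, at 1.15 (SE 0.34, adjusted p = 0.024), was called without mock library 203 (1.154) and with DESeq2 (1.157) and limma (1.140).

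Location bears on part of this comparison. Over the 477 tested genes of chromosome 19 the median log2 fold change was -0.02 in EPR against mock, -0.55 in EPRSTOPE against mock and 0.55 in EPR against EPRSTOPE. Of the 59 genes 7 lie there, namely *Gstp1*, *Gsto1*, *Gsto2*, *Aldh3b1*, *Aldh18a1*, *Aldh1a1* and *Aldh1a7*, and 5 of the 11 genes higher in EPR than in EPRSTOPE were among them. Without chromosome 19, 6 genes were higher in EPR than in EPRSTOPE, and 1 instead of 3 was lower in EPRSTOPE than in mock. Relative to the chromosome's median, EPR exceeded EPRSTOPE by 2.97 for *Aldh1a1*, 0.92 for *Gsto2*, 0.75 for *Aldh3b1*, 0.23 for *Aldh18a1*, 0.20 for *Gstp1* and -0.05 for *Gsto1*. On the same scale *Aldh1a1* was at -0.43 and *Aldh18a1* at -0.80 in EPRSTOPE against mock, and *Gstp1* at 1.22. Whether a change of the chromosome took part in these values was not tested.

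**Figure D4:**
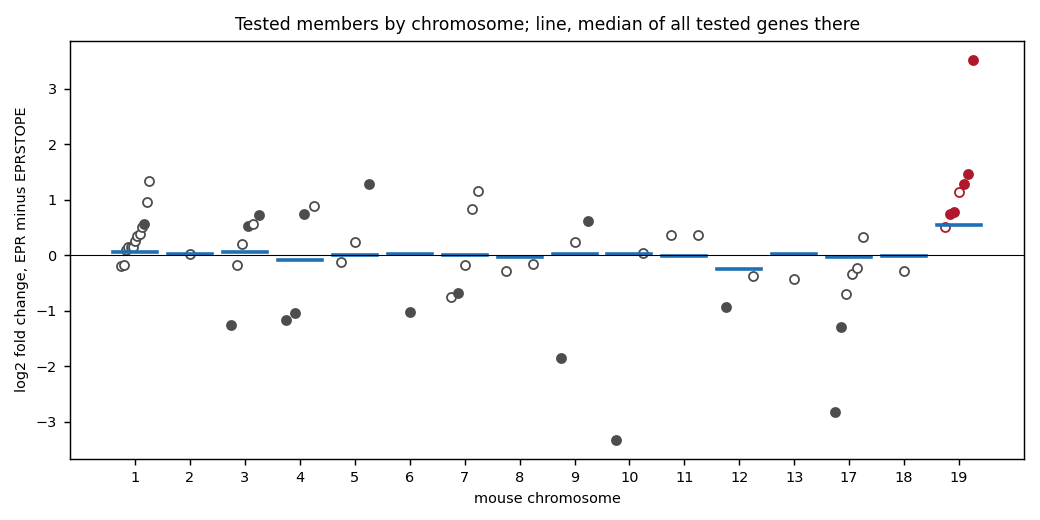
Log2 fold change of EPR against EPRSTOPE for the 59 tested genes by mouse chromosome (points, filled where called, spread sideways only for visibility), with the median of all tested genes of that chromosome as a line. On chromosome 19 (red) the median is 0.55 and the 7 genes lie between 0.50 and 3.52, and the other medians lie between -0.25 and 0.06.

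Transcript length bears on the *Gst* values. The difference between transcript length and effective length, which reflects the mean fragment length, was 410.8 to 472.9 nt in mock, 180.1 to 281.7 in EPR and 115 to 386 in EPRSTOPE libraries. Mock libraries thus had longer fragments than all others, and short transcripts lose counts with long fragments. The tested *Gst* transcripts had a median length of 1073 nt (757 to 2019), against 2395 nt for *Aldh* and 2956 nt for *Cyp*. With counts rescaled for effective length, *Gsto1* rose by 2.23 and 1.75, *Gstp1* by 1.06 and 0.45, and *Gsta4* by 2.69 and 2.12 in EPR and EPRSTOPE. All calls of *Gst* genes in EPR against mock stood under this rescaling, and in EPRSTOPE those of *Gstp1* and *Gstz1* were lost.

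**Figure D5:**
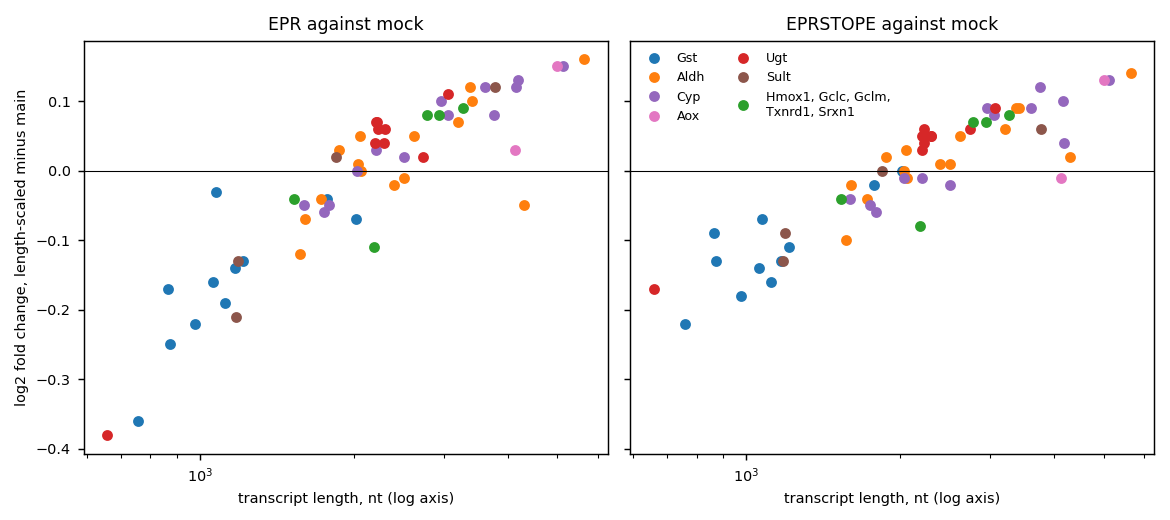
Change in the log2 fold change against mock when counts were rescaled for effective length, against transcript length (nt, log axis), for the tested genes (points, coloured by family). The short *Gst* transcripts lie below 0, by up to 0.36 for *Gstp1* in EPR, and long transcripts lie slightly above it.

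Levels were compared between genes on the TPM scale, which accounts for length. *Gstp1* (288 ± 23.7 TPM, SD, n = 3), *Gsto1* (225 ± 20.5) and *Txnrd1* (145 ± 8.01) led in mock, with no overlap between neighbours. In EPR the order was *Gsto1* (997 ± 109), *Gstp1* (585 ± 69.8) and *Gsta4* (243 ± 15.2), again without overlap, followed by *Aldh1a1* (124 ± 9.98), which overlapped with *Txnrd1* (120 ± 24.4) and *Ugt1a7c* (112 ± 13.3). In EPRSTOPE *Gsto1* (734 ± 89.2) and *Gstp1* (390 ± 63.9) also led, followed by *Gsta4* (169 ± 26.1) and *Gsta1* (129 ± 26.7), which overlapped. *Gsto1* thus passed *Gstp1* in both overexpressing populations, and *Aldh1a1*, next after these in EPR, was not among the 12 most abundant genes of mock or EPRSTOPE.

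Related genes outside the families were read from lists of the pathway. Their counts stand against 15.2% of all tested genes higher and 12.9% lower in EPR, 15.6% and 12.4% in EPRSTOPE, and 6.86% and 6.35% in EPR against EPRSTOPE. Some listed genes passed the filter only through libraries other than mock, and so had to be higher in EPR, EPRSTOPE or both. Examples are *Abcb1a*, *Abcc2*, *Ephx2* and *Dhrs3*, at 0.21, 0.42, 0.33 and 0.53 CPM in mock. The counts of these lists are thus not free of the filter. Of 12 tested regulators, 6 rose and 2 fell in EPR and 5 rose and 2 fell in EPRSTOPE. *Nfe2l2* itself rose from 83.0 ± 3.21 CPM to 152.8 ± 2.28 and 141.7 ± 8.84 (log2 fold changes 0.88 and 0.77, SE 0.06 each), and so did *Bach1*, the repressor at ARE sites that restrains *Hmox1* (1.11 and 0.64). *Keap1*, which holds NRF2 in the cytoplasm, was not called (0.46 and 0.30). The aryl hydrocarbon receptor gene *Ahr* fell from 98.9 ± 0.545 CPM to 40.3 ± 1.76 and 59.7 ± 4.49 (log2 fold changes -1.29 and -0.73, SE 0.07 each), as did *Tiparp*, a target of that receptor (-1.08 and -0.67). *Ahr* was lower in EPR than in EPRSTOPE, by 0.57 (adjusted p = 6.6e-05, edgeR).

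Among 16 tested detoxification enzymes of other families, 8 rose and 1 fell in EPR and 8 rose and 2 fell in EPRSTOPE. *Ephx1*, the microsomal epoxide hydrolase, rose from 7.59 ± 3.16 CPM to 223.7 ± 2.73 and 230.3 ± 3.68 (log2 fold changes 4.83 and 4.87, SE 0.18 each), and *Mgst1*, the microsomal glutathione transferase, from 7.16 ± 2.03 to 82.9 ± 8.57 and 77.2 ± 5.19. Of 8 tested genes of glutathione supply and reduction, 5 rose and 1 fell in EPR and 3 rose and 1 fell in EPRSTOPE. The cystine carrier *Slc7a11* rose in EPR alone (0.89) and was higher there than in EPRSTOPE (0.74). Of 7 tested genes of a thioredoxin and peroxiredoxin list, which also holds *Osgin1*, 4 rose in EPR and 3 in EPRSTOPE. *Txnip*, *Prdx1* and *Prdx6* rose in both and *Osgin1* in EPR, whereas *Txn1*, *Txnrd2* and *Prdx2* were not called. Of 5 electron donors of the P450 enzymes 2 rose in EPR and 4 in EPRSTOPE, with none falling in either list. Of 8 tested retinoid genes 3 rose and 1 fell in EPR and 3 rose in EPRSTOPE, among them *Dhrs3*, a retinaldehyde reductase (4.20 and 2.35).

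Export pumps carry out the last step. The list read here holds *Abc* pumps and also the organic anion transporters *Slco2a1*, *Slco3a1* and *Slco4a1*, so its counts are not of export alone. Of its 11 tested genes 6 rose and 2 fell in EPR, *Slco2a1* and *Slco3a1* among those that rose. In EPRSTOPE 3 rose and 4 fell, with *Slco2a1* among the former and *Slco4a1* among the latter. In the direct comparison 8 were higher in EPR, the *Slco* genes among them, and 1 was lower. *Abcb1a* rose from 0.212 ± 0.091 CPM, below the value of 3 counts, to 36.6 ± 5.35 and 60.2 ± 2.83. Its paralog *Abcb1b* fell from 61.3 ± 2.66 to 42.1 ± 0.468 CPM in EPR and to 0.765 ± 0.365 in EPRSTOPE (log2 fold changes -0.54 and -6.40), and *Abcg2*, the breast cancer resistance protein, from 54.2 ± 0.709 to 24.8 ± 1.49 and 1.84 ± 0.911 (-1.13 and -4.90). The differences between EPR and EPRSTOPE, 5.85 for *Abcb1b* and 3.77 for *Abcg2*, had SEs of 0.16 and 0.22 (adjusted p = 6.5e-10 and 1.7e-07, edgeR). *Abcb1a* and *Abcb1b* are related in sequence, so some reads may have been divided between them in error.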

How the data were processed

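RNA-Seq of 9 NMuMG libraries was used, 3 per condition, grouped by their genotype labels. The authors quantified paired reads with Kallisto 0.43.1 on Gencode mouse transcripts (demultiplexing with bcl2fastq 2.0, per the labels) and deposited a table per library with 131100 transcripts, which gives the estimated count (not normalized), the effective length and TPM, scaled by the authors to a sum of 1000000. Whether replicates were processed together was not given in the sources used here. The libraries held 5972457 to 11876435 estimated counts, which sets the precision of genes near 3 counts.

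Estimated counts were summed per gene symbol and rounded, since the test needs whole counts. The 15370 genes that reached 1 CPM in 3 or more libraries were fitted with edgeR 4.0.16 in R 4.3.3 (TMM, quasi-likelihood test, 1 factor of 3 levels over all 9 libraries), with Benjamini-Hochberg adjustment over all tested genes. Calls needed an adjusted p below 0.01 with a log2 fold change larger than 0.5 in size. The filter used CPM before TMM normalization. Printed CPM values are TMM-normalized, ± is the SD of 3 libraries, and SE was derived from the quasi-likelihood F statistic. An exact permutation test of 3 libraries against 3 cannot go below p = 0.1, the value of every pair of groups without overlap.

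Family members and related lists were chosen with earlier results of these data known. Named genes were the 6 antioxidant genes, the 5 tested genes with the highest mean CPM in each family, and per comparison the 8 largest called increases and decreases with at least 5 CPM in the higher group and no overlap. Others are said to be outside this rule or stand in counts. Of the symbols kept, 13 end in -ps with a number, and none of these was tested. Positions came from Gencode gene models on GRCm38.

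Alternatives were DESeq2 1.42.0, limma 3.58.1 with voom, DESeq2-type size factors in edgeR, no filter, counts rescaled for effective length, only the compared groups, the *Ugt1a* genes summed, members off chromosome 19, and each library left out. Scripts were tested on simulated data. Tables were made with matplotlib 3.10.9, scipy 1.17.1, numpy 2.4.6 and pandas 2.3.3 under Python 3.11.15.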

Additional observations from a re-analysis of the deposited data

Results flagged for a closer look

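*Aldh1a1* was set apart because its calls against mock had opposite directions in the populations (2.53 in EPR and -0.98 in EPRSTOPE on the log2 scale) and the difference itself was tested, by EPR against EPRSTOPE, at 3.52 (SE 0.10, adjusted p = 7.7e-10 in edgeR's quasi-likelihood test). The direction was shared by all 3 libraries of each population. The median of all tested genes of chromosome 19, where *Aldh1a1* lies, was 0.55 in the same comparison, and its part in the value was not tested. Less that median, *Aldh1a1* was at 2.97 between the populations and at -0.43 in EPRSTOPE against mock.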

How the results depend on the processing

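No paired analysis was possible because the conditions share no replicate numbers. Without the chromosome 19 genes, 1 gene instead of 3 was lower in EPRSTOPE than in mock, and 6 instead of 11 were higher in EPR than in EPRSTOPE, by construction from fewer genes. Leaving out each library gave 29 to 33 higher and 4 lower genes for EPR against mock, 29 to 30 higher and 3 to 4 lower for EPRSTOPE against mock, and 10 to 12 higher and 6 to 10 lower in EPR than in EPRSTOPE, the value of 6 without EPR library 206 and without 208. Over all tested genes it gave 3816 to 4328, 3817 to 4251 and 1664 to 2026 calls. Of 120 comparisons of named genes, 78 were called. That share is no result, since some genes were named for their large called changes. Of all tested genes 28.1% were called in EPR against mock, 28.0% in EPRSTOPE against mock and 13.2% in EPR against EPRSTOPE. The repeats that follow cover the same named genes. In 825 repeats under other settings 814 kept their side of the threshold, 4 lost and 7 gained a call, and in 1071 repeats without 1 library 1049 kept it, 16 lost and 6 gained. No called value changed sign, and 24 uncalled values did. The calls lost concerned *Gclm*, *Sult2b1*, *Gstm2*, *Cyp4f14* and *Cyp4b1* between EPR and EPRSTOPE and *Gstp1* in EPRSTOPE, and those gained *Gclm* in EPRSTOPE and *Gsto1* and *Cyp2s1* between EPR and EPRSTOPE. The cause was not tested. Genes near 3 counts limit the sizes of the largest increases.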

Other observations

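Genes below the filter held a few values of interest, chosen after they were seen. *Gstp2*, a close copy of *Gstp1*, had no count in mock or EPRSTOPE and 7, 6 and 7 counts in the EPR libraries. *Gstt1* had 5, 7 and 11 counts in mock, 6, 4 and 3 in EPR and none in EPRSTOPE. *Cyp2c65*, of a subfamily found in the gut, had no count in mock, 2, 2 and 7 in EPR and 7, 17 and 9 in EPRSTOPE, and *Cyp4f17* had 0, 0 and 1 in mock, 6, 5 and 2 in EPR and 7, 9 and 15 in EPRSTOPE. Reads of such genes may be shared with paralogs, and none was tested.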
